A study of Mus musculus with 4 samples.

Results

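Solute carriers are the membrane proteins that move ions, metals, sugars, amino acids, nucleosides, vitamins and lipids into and out of cells and their organelles. The members described here are the solute carrier genes expressed in the transformed mouse keratinocyte line PDVC57, on 4 Affymetrix arrays. A gene was a member when its symbol in the platform annotation began with Slc and a family number and its brightest probe set lay above the floor of 20, the lowest intensity the deposited table holds, on at least 1 array. Of the 361 genes with such a symbol, 130 lay above the floor and 231 stood at 20 on all 4 arrays. The glucose, lactate and amino acid carriers Slc2a1, Slc2a3, Slc16a3, Slc7a11, Slc7a5, Slc3a2, Slc7a1 and Slc1a5 were among the 361 and were left out by name. Of these 8 genes, 6 lay above the floor. This left 124 members, out of 8303 genes of any kind above the floor. They were thus chosen by their intensity, so that their being expressed is a description and not a finding.

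All 4 samples were PDVC57 cells held in DMEM-F12 medium with 0.1% FBS. They were non stimulated (NS) or given murine recombinant oncostatin M (OSM) at 10 ng/ml, and were taken after 6 h or 24 h, with 1 array for each of NS 6 h, OSM 6 h, NS 24 h and OSM 24 h. OSM belongs to the IL-6 cytokines, whose receptors share the gp130 chain and activate STAT3. The study paired OSM with NS at each time, and the labels also allow 24 h to be set against 6 h. A single line is the model here, so the values say nothing about other keratinocytes. The gene for the OSM receptor subunit, Osmr, read 21.7 in NS and 121 in OSM at 6 h, then 22.7 in NS and 135 in OSM at 24 h, which separated the OSM arrays from the NS arrays at both times. All 13 keratinocyte markers on the array were above the floor, and their summed intensity was higher with OSM at both times, at 4281 in NS and 4909 in OSM after 6 h and at 4404 and 5384 after 24 h. Of these markers 9 were higher with OSM at both times, among them Krt6a at 223 and 488 after 6 h, and 4 were lower at both, Cdh1, Perp, Krt8 and Krt18. Of 35 fibroblast, immune, melanocyte and endothelial markers on the array, 1 was above the floor, the matrix gene Fbln1, at 48.02 to 56.7. The part of these markers in the results was not tested. Each array had 72.5% to 73.0% of its probe sets at the floor, and the highest intensity was 4505 to 4582, so the arrays were alike in range.

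Most solute carriers work in a membrane of known address, and their families are numbered by sequence. The SLC39 or ZIP family brings zinc into the cytosol and the SLC30 or ZnT family moves it the other way. Most SLC25 proteins, the mitochondrial carrier family, are carriers of the inner mitochondrial membrane. SLC35 proteins feed nucleotide sugars to the Golgi and the endoplasmic reticulum. In skin, zinc carriers are known from human disease: inherited loss of ZIP4, the product of SLC39A4, causes acrodermatitis enteropathica, a zinc deficiency with skin lesions. Zinc within mouse cells is sensed by the factor MTF1, which binds metal response elements in DNA, while STAT3 binds a paired TTC and GAA.

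The promoters of some genes that differed between the times are shown first, among them those of the metal carrier genes Slc31a2 and Slc39a10. Of the 124 members, 100 had a promoter entry in RefSeq for GRCm38.p6, and the window searched was the 250 bases before each start. The core of the metal response element was searched as TGCACNC or TGCGCNC and the STAT element as TTCNNNGAA, both on both strands. The forms of the metal motif differ at a single base, and a match on one strand can overlap one on the other. The metal motif was in 21.4% of all 32851 promoter windows and in 36 of the 134 windows of the members, or 26.9%. The STAT motif was in 7.02% of all windows and in 6 of the members' windows, or 4.48%. Of the 12 members called for time below, 9 had an entry, with 20 windows, and 6 windows in 6 genes held a metal motif, or 30%. The metal carrier genes Slc39a4 and Slc25a37, and Slc14a1, had no entry and so were not searched. The windows of Slc25a48 and Slc2a5, not printed, held neither motif. A match is a description of these letters and not a binding site. The windows printed, 5′ to 3′ on the gene's strand with matches in capitals, are those of the copper carrier gene Slc31a2, with a metal match, of the organic cation carrier gene Slc22a4, with 3 metal matches, and of Slc35f5, with 1 at its upstream start. For the zinc importer gene Slc39a10 there are windows at both of its starts, 1 with a STAT match and 1 with neither motif.
Slc31a2, chr4:62286179-62286428, plus strand: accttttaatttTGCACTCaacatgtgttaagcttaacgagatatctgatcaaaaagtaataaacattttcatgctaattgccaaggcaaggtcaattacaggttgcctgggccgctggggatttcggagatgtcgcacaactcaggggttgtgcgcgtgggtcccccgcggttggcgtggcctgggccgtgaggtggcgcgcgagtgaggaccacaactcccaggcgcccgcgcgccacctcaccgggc
Slc22a4, chr11:54028105-54028354, minus strand: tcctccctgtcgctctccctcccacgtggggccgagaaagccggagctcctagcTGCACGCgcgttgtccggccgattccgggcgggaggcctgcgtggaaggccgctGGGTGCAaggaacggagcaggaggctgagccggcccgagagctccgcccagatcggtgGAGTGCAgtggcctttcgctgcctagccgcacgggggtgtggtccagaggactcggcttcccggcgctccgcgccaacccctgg
Slc35f5, chr1:125560345-125560594, plus strand: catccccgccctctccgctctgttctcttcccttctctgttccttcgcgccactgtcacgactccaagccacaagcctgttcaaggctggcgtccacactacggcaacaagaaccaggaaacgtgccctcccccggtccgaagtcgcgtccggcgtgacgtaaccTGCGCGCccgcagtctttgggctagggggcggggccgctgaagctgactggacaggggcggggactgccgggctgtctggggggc
Slc39a10, chr1:46925777-46926026, minus strand: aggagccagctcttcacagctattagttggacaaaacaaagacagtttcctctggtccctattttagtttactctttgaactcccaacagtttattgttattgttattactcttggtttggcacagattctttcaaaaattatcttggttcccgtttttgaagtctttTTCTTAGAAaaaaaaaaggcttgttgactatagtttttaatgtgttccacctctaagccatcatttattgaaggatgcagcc
Slc39a10, chr1:46853619-46853868, minus strand: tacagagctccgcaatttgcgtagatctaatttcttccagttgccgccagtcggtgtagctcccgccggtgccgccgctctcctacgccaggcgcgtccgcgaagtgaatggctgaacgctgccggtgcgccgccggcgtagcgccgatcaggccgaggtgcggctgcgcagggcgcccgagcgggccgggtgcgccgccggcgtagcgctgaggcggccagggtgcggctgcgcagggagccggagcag

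The members came from 39 of the 51 solute carrier families on the array. The mitochondrial carrier family made up the largest group, with 33 of 46 SLC25 genes above the floor. The nucleotide sugar carriers of SLC35 followed with 16 of 26, and the zinc importers of SLC39 with 9 of 14. Both SLC31 copper carriers and both SLC20 phosphate carriers were expressed. At the other end were the organic ion carriers of SLC22, with 3 of 24, and the neurotransmitter and creatine carriers of SLC6, with 2 of 20. The sodium-driven carriers of SLC5 had 1 of 11, Slc5a6, classed here with vitamins, lipids and organic solutes and not with sugars. The facilitated sugar carriers of SLC2 had 1 of 11 once Slc2a1 and Slc2a3 were set aside. No gene of SLC13, SLC18 or SLC28, carriers of citrate, vesicular amines and nucleosides, was a member. Of the 124 members, 116 were above the floor on all 4 arrays and 8 on some, and 34 had a brightest array under 40. The members nearest above the floor were Slc25a23, whose highest array read 20.02, Slc45a3 at 20.03 and Slc25a25 at 20.66, and those left outside stood at 20. All 124 were in RefSeq's gene table under the same symbol. By family or by what they carry, 33 members belonged to the mitochondrial carrier family, 19 carried metals and 19 nucleotide sugars and nucleosides. A further 16 carried vitamins, lipids and organic solutes, 12 amino acids and peptides, 12 inorganic ions or protons, and 7 sugars and carboxylates. Another 2 were carriers of vesicles and lysosomes. The other 4, among them the scaffold gene Slc9a3r1, bear the name without being transporters.

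With OSM, most solute carriers lay close to their NS levels, and so did most genes. No member was 1.5-fold or more higher or lower with OSM at 6 h, of 118 measured above the floor in that pair, where 0.741% of all 8101 genes were higher and 0.272% were lower. At 24 h none of 122 members was 1.5-fold away, against 0.674% of 8164 genes higher and 0.551% lower. The log2 ratios of OSM over NS lay between -0.37 and 0.44 at 6 h, and between -0.44 and 0.56 at 24 h. At 6 h 94.1% of members and 93.3% of all genes were within 1.25-fold, and at 24 h 92.6% and 93.6%. The median log2 ratio of the members was 0.03 at 6 h, beside -0.00066 over all genes, and 0.04 at 24 h, beside 0.01. Each of these ratios is 1 array over 1 array, has no replicate check and carries no p-value, and the number of arrays limits its precision.

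A linear model of all 4 arrays, fitted with limma on log2 intensity with a term for OSM and a term for time, tested what was common to both times. For OSM it called 0 of the 124 members at a Benjamini-Hochberg adjusted p of 0.05, while 0.241% of all 8303 genes were called higher and 0% lower. At an unadjusted p of 0.05, 17 members were higher, or 13.7%, beside 6.71% of all genes, and 5 were lower, or 4.03%, beside 4.64%. Among the other settings of limma the count was 0 to 4, where 0% to 1.59% of all genes were called, and the members called there were Slc29a2, Slc25a48, Slc44a2 and Slc31a2. With 1 array per condition, the 1 residual degree of freedom of this fit is how far the OSM ratios at 6 h and 24 h disagree. These p-values set a difference against that disagreement, partly pooled over all genes, and not against a spread between replicates. Nothing in the labels says that the arrays came from separate cultures, and the differences between the 4 arrays may be technical.

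**Figure D1:**
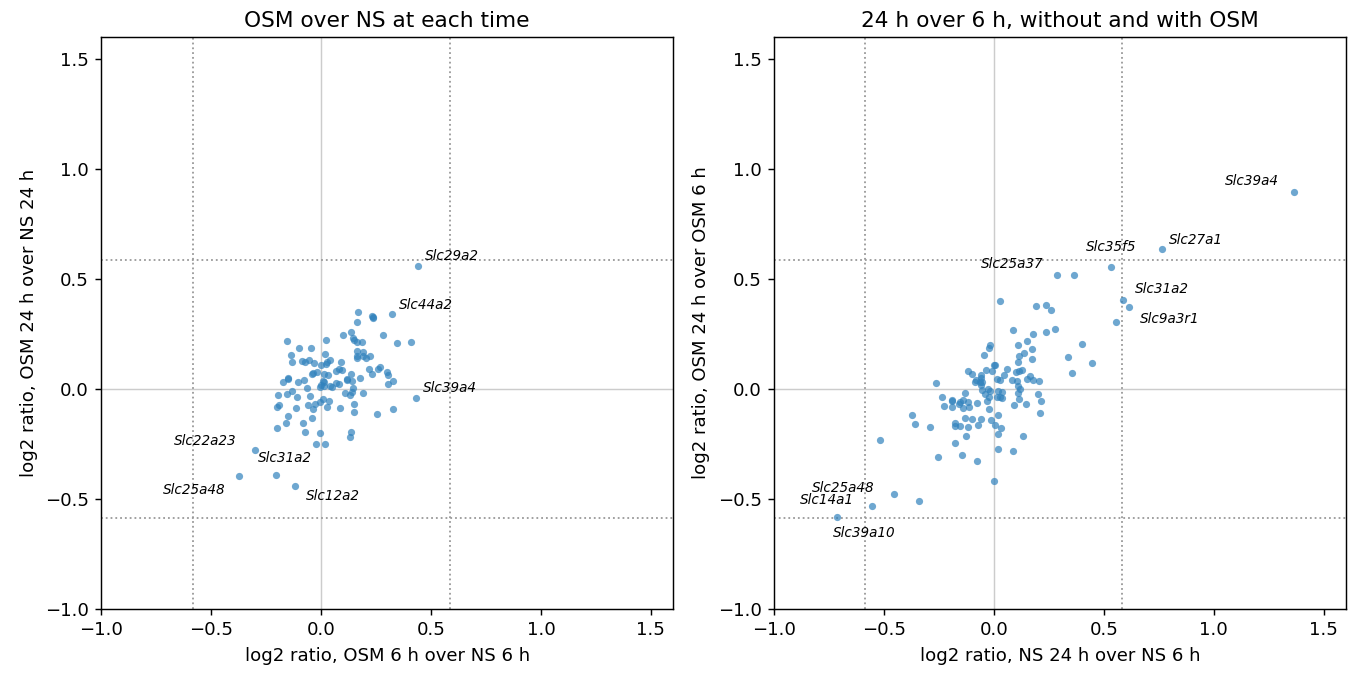
Each point is 1 solute carrier gene. The left panel plots the log2 ratio of OSM over NS at 24 h against that at 6 h, the right panel the log2 ratio of 24 h over 6 h with OSM against that without, and dotted lines mark 1.5-fold; each ratio is 1 array over 1 array. No point passes a line on the left, while Slc39a4 and Slc27a1 pass both lines on the right.

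The highest OSM ratio at each time belonged to Slc29a2, which encodes the equilibrative nucleoside transporter ENT2 and was named after its values were seen. It read 21.1 in NS and 28.7 in OSM at 6 h, and 20.61 in NS and 30.4 in OSM at 24 h. Both OSM arrays were above both NS arrays, but all 4 lay close to the floor. The log2 ratios were 0.44 and 0.56, and limma's estimate was 0.50 with an SE of 0.078 and an adjusted p of 0.0901. With the genes above the floor on all arrays alone, the adjusted p was 0.0457, and with a floor of 40 the gene could not be measured. Its relative Slc29a1, the gene of ENT1, read 37.4 and 44.8 at 6 h, and 29.5 and 31.5 at 24 h, in NS and OSM. These log2 ratios of OSM over NS were 0.26 and 0.09.

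In the other direction stood Slc25a48, a carrier of the inner mitochondrial membrane. It read 212 in NS and 164 in OSM at 6 h, and 155 in NS and 118 in OSM at 24 h. The OSM array was the lower at each time, and the ratios were alike, at -0.37 and -0.39 on the log2 scale. Limma gave -0.38 with an SE of 0.0744 and an adjusted p of 0.148. Slc29a2 and Slc25a48 were the 2 genes among 116 measured that were at least 1.25-fold away at both times, 1 higher and 1 lower, or 0.862% in each direction, where 1.21% of all genes were higher and 0.301% lower. The zinc importer gene Slc39a4, described below, had a log2 ratio of 0.43 at 6 h and of -0.04 at 24 h.

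Choline carriers and organic ion carriers had ratios on both sides of 0. Slc44a2, a choline transporter-like gene, read 411 in NS and 513 in OSM at 6 h, and 399 and 505 at 24 h. Its OSM arrays were the higher pair and its NS arrays hardly differed from each other. The log2 ratios were 0.32 and 0.34, with an adjusted p of 0.207 in limma. Slc44a1, a choline carrier of the plasma membrane, read 169.9, 167, 195 and 164 in NS 6 h, OSM 6 h, NS 24 h and OSM 24 h. Its log2 ratios of OSM over NS were -0.02 at 6 h and -0.25 at 24 h. Slc22a23, an organic ion carrier of the SLC22 family whose substrate is not settled, read 189 and 153 at 6 h and 222 and 183 at 24 h. Its ratios were -0.30 and -0.28, and limma's adjusted p was 0.240.

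Ion carriers showed the lowest ratio at 24 h. Slc12a2 encodes NKCC1, the cotransporter that brings sodium, potassium and chloride into cells. It read 584 in NS and 537 in OSM at 6 h, and 675 in NS and 497 in OSM at 24 h. Its OSM arrays were below its NS arrays, with log2 ratios of -0.12 and -0.44 and an adjusted p of 0.354 in limma. Slc12a4, the gene of the potassium-chloride cotransporter KCC1, read 92.0, 114, 118 and 119.7 in NS 6 h, OSM 6 h, NS 24 h and OSM 24 h. Only its NS 6 h array stood apart, so that the OSM ratio was 0.31 at 6 h and 0.02 at 24 h. Slc20a1, a sodium-driven phosphate importer, read 309 and 345 at 6 h and 297 and 344 at 24 h in NS and OSM. It was higher with OSM by 0.16 and 0.21 on the log2 scale. Slc4a11, a proton and ammonia carrier of the bicarbonate family, had 155 in NS and 135 in OSM at 6 h and 126 and 119.6 at 24 h. Its ratios were -0.20 and -0.08. Slc8b1, which takes calcium out of mitochondria in exchange for sodium, had 58.6 and 64.4 at 6 h and 79.9 and 69.8 at 24 h. Its OSM ratio was 0.14 at 6 h and -0.20 at 24 h, a difference that was not tested.

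Carriers of sugars, carboxylates and amino acids gave small ratios. Slc16a1 encodes MCT1, which moves lactate and pyruvate with a proton. It read 528 and 580.2 at 6 h and 506 and 606 at 24 h in NS and OSM, with log2 ratios of 0.14 and 0.26. Slc16a13, of the same monocarboxylate family, read 115 and 135 at 6 h and 137 and 173 at 24 h. Its OSM array was the higher at each time, by 0.23 and 0.33, and limma's adjusted p for OSM was 0.254. Slc66a1, which exports cationic amino acids from lysosomes, read 42.5 and 49.96 at 6 h and 42.2 and 52.9 at 24 h. The ratios of 0.23 and 0.32 had an adjusted p of 0.256. The glutamine importers Slc38a1, at 544, 554, 519.8 and 566, and Slc38a2, at 1138, 1190.2, 1241 and 1265 in the order NS 6 h, OSM 6 h, NS 24 h and OSM 24 h, gave OSM ratios of 0.03 to 0.12. Slc36a4, a proton-coupled amino acid carrier gene, read 654 and 589 at 6 h and 556 and 573 at 24 h, with OSM ratios of -0.15 and 0.05. Over the 12 amino acid and peptide carriers the median ratio was 0.02 at 6 h and 0.09 at 24 h. Slc19a2, the thiamine importer gene, read 121 and 142 at 6 h and 108 and 136 at 24 h. Its ratios were 0.23 and 0.33, with an adjusted p of 0.256.

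Zinc importers and exporters were the largest group of metal carriers. Of the 9 SLC39 members, 7 had a log2 ratio above 0 at 6 h and 7 at 24 h, with medians of 0.22 and 0.11. Above 0 at these times were 61.0% and 63.9% of all members, and 49.8% and 53.4% of all genes. Of the 5 SLC30 members it was 3 and 2, with medians of 0.01 and -0.04. The difference between the families was not tested, and none of these genes was called for OSM by limma. Slc39a1, the gene of the plasma membrane zinc importer ZIP1, read 143 in NS and 189.5 in OSM at 6 h, and 181 in NS and 209 in OSM at 24 h. Both times the OSM array was higher, by 0.41 and 0.21 on the log2 scale, and limma's estimate was 0.31 with an SE of 0.0836 and an adjusted p of 0.252. Slc39a14 encodes ZIP14, a carrier of zinc and iron known in mouse liver as a target of IL-6. It read 59.2 and 72.0 at 6 h and 64.2 and 76.1 at 24 h. The ratios of 0.28 and 0.25 were alike, with an adjusted p of 0.270. Slc39a6, the gene of ZIP6, read 215 and 242 at 6 h and 228 and 291 at 24 h. Its ratios were 0.17 and 0.35, with an adjusted p of 0.325. Slc39a7, whose product ZIP7 releases zinc from the endoplasmic reticulum, read 125 and 146 at 6 h and 120.2 and 133 at 24 h. The log2 ratios of OSM over NS were 0.22 and 0.15. Slc30a4, a vesicular zinc exporter gene, read 401, 403, 411 and 399 on the 4 arrays, within a log2 ratio of 0.04 of each other in every pair. Slc31a2, the gene of the copper carrier CTR2, read 212 in NS and 184 in OSM at 6 h and 319 and 243 at 24 h. Its OSM array was the lower at each time, with log2 ratios of -0.21 and -0.39 and an adjusted p of 0.261.

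Small OSM ratios in the same direction at both times were counted as well, a count that was not planned. With OSM, 21 of 116 members were at least 1.1-fold higher at both times, or 18.1%, where the share of all genes was 6.78%. In the lower direction there were 5 members, or 4.31%, beside 4.56%. At 1.25-fold the shares were 0.862% of members higher and 0.862% lower, beside 1.21% and 0.301% of all genes. The 21 were spread over the classes and included the zinc importers Slc39a1, Slc39a6, Slc39a7 and Slc39a14, the zinc exporter Slc30a6, the magnesium carrier Slc41a1, the vitamin C carrier Slc23a2, the fatty acid carrier Slc27a4, the GDP-fucose carrier Slc35c1 and the sugar carrier Slc50a1. The 5 that were lower were Slc14a1, Slc22a23, Slc25a17, Slc25a48 and Slc31a2. With each array centred on its median, which was tried after seeing the data, the shares were 12.1% of members and 5.22% of all genes higher, and 6.03% and 6.20% lower. The pattern has no test here, since each pair is 1 array over 1 array and the members are not replicates of a condition.

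The same fit called members for time. Limma called 8 members higher and 4 lower at 24 h than at 6 h, where 5.82% of all 8303 genes were higher and 2.76% lower. Of 124 members these are close to the shares of all genes. Without Slc2a5, which stood at the floor on both 6 h arrays and became a member through its 24 h level, 7 were higher. The 8 were Slc39a4, Slc27a1, Slc35f5, Slc31a2, Slc9a3r1, Slc22a4, Slc2a5 and Slc25a37, and the 4 were Slc39a10, Slc14a1, Slc25a48 and Slc29a1. At least 1.25-fold apart in both NS and OSM cells were 6 members higher at 24 h, or 4.96%, beside 4.68% of all genes, and 4 lower, or 3.31%, beside 2.04%. In NS cells 4 of 123 members were at least 1.5-fold higher at 24 h and 1 was lower, beside 2.87% and 0.659% of 8198 genes. In OSM cells 2 of 122 were higher and 0 lower, beside 1.89% and 0.490% of 8161 genes. The calls depended on the fit: after quantile normalization, without the OSM term, or with any 1 array left out, limma called 0 members for time, and with an intensity trend it called 19. The calls over all genes moved likewise, to 1 gene after quantile normalization, to 0 without the OSM term or with an array left out, and to 16.6% of genes with the trend, beside 15.3% of members. With both terms and all arrays, 18 members were higher and 11 lower at an unadjusted p of 0.05, or 14.5% and 8.87%, beside 17.2% and 10.8% of all genes.

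**Figure D2:**
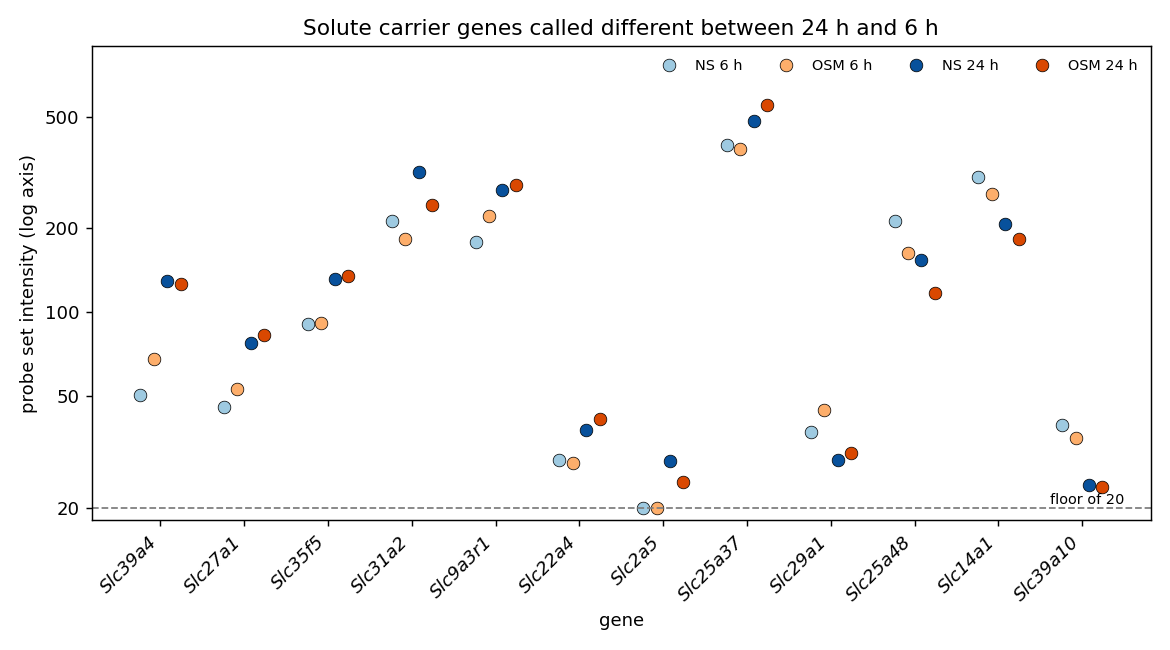
Probe set intensity, on a log axis, of the 12 solute carrier genes called for time by limma, with 1 point per array and genes in order of the fitted difference from the highest to the lowest. Both 24 h arrays lie above both 6 h arrays for the 8 genes on the left and below them for the 4 on the right; the dashed line is the floor of 20, where both 6 h arrays of Slc2a5 lie, a gene that became a member through its 24 h level.

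Slc39a4, the gene of the zinc importer ZIP4, rose most. It read 50.5 in NS and 68.0 in OSM at 6 h, and 129.9 in NS and 126 in OSM at 24 h. Both 24 h arrays were above both 6 h arrays, with a rise of 2.58-fold in NS cells and 1.86-fold in OSM cells. Limma's log2 estimate was 1.13 with an SE of 0.118 and an adjusted p of 0.0111. It was the 1 member past 2-fold in any pair, in NS cells, where 0.732% of all genes were 2-fold higher and 0.0488% lower. In OSM cells 0.221% and 0.049% of genes passed 2-fold, and with OSM over NS 0.148% and 0.0123% at 6 h and 0.184% and 0.147% at 24 h. Slc39a10, the gene of the importer ZIP10, fell. It read 39.5 in NS and 35.5 in OSM at 6 h, and 24.1 and 23.7 at 24 h. The 24 h arrays were the lower pair and close to the floor, with log2 ratios of -0.72 in NS cells and -0.58 in OSM cells. Limma's estimate was -0.65 with an SE of 0.0788 and an adjusted p of 0.0127. Its promoter windows, printed above, held a STAT motif at 1 start and no metal motif.

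**Figure D3:**
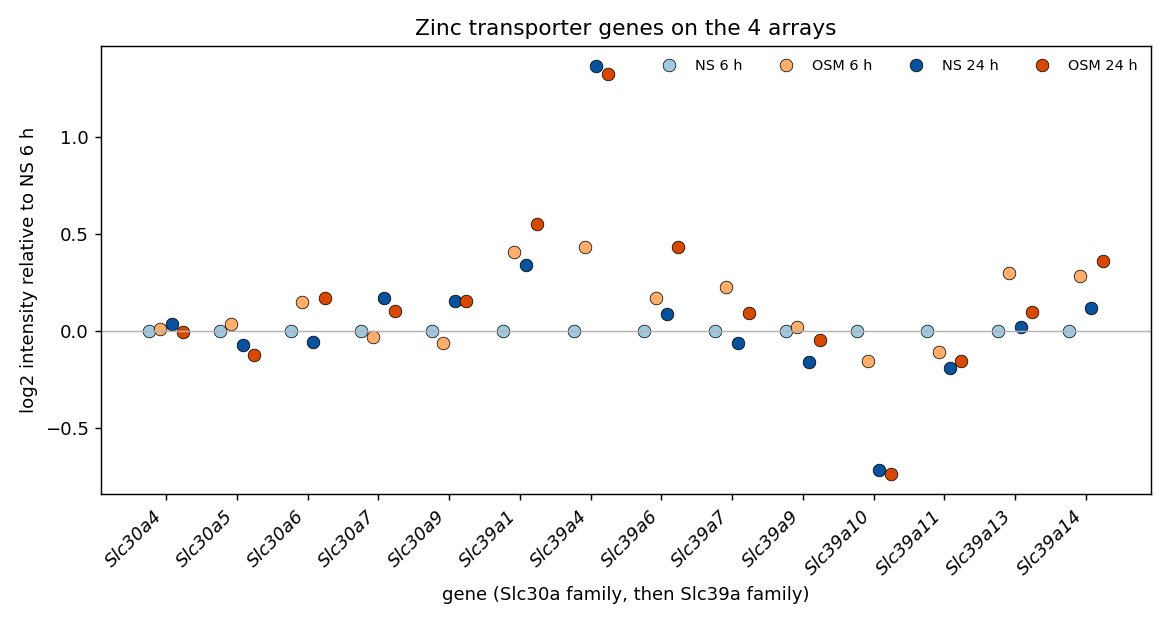
Log2 intensity of the 14 zinc transporter genes on each of the 4 arrays, relative to the same gene's NS 6 h array, with 1 point per array. Slc39a4 lies highest and Slc39a10 lowest at 24 h, while the SLC30 genes stay within 0.17 of their NS 6 h array.

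Copper and iron carriers followed in part. Slc31a2 rose from 212 to 319 in NS cells and from 184 to 243 in OSM cells, with log2 ratios of 0.59 and 0.40. Limma's estimate was 0.49 with an SE of 0.0825 and an adjusted p of 0.0239, and the 24 h arrays were the higher pair. The other copper carrier, Slc31a1 or CTR1, read 114, 108, 123 and 108 in NS 6 h, OSM 6 h, NS 24 h and OSM 24 h, with no separation of the times. Slc25a37, the gene of mitoferrin-1, which takes iron into mitochondria, rose from 397 to 485 in NS cells and from 385 to 552 in OSM cells. The folds were 1.22 and 1.43, and the adjusted p was 0.0414. Its relative Slc25a28, or mitoferrin-2, read 151, 147, 139 and 127 in the same order. The lowest of these was OSM 24 h, and limma's adjusted p for time was 0.208. Slc11a2, the divalent metal carrier DMT1, read 84.0 and 83.7 at 6 h and 111 and 96.5 at 24 h in NS and OSM. Its adjusted p for time was 0.0728. Slc48a1, which moves heme out of endosomes, read 387, 399, 418 and 458 in that order of arrays.

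Genes that store or respond to metals gave a background to these carriers. Of 16 listed, 15 were measured and 13 were above the floor. The metallothionein genes Mt1, at 634, 679, 669 and 701, and Mt2, at 1182, 1332, 1116 and 1241 in NS 6 h, OSM 6 h, NS 24 h and OSM 24 h, were within 1.25-fold in every pair. The transferrin receptor gene Tfrc read 151 and 167 at 6 h and 217 and 224 at 24 h, with log2 ratios of 24 h over 6 h of 0.52 in NS and 0.42 in OSM cells. With OSM at 24 h, 2 of the list were at least 1.5-fold higher, the iron-siderophore binding Lcn2 at 20.7 in NS and 77.1 in OSM, and the heme oxygenase gene Hmox1 at 129.6 and 267. At 6 h it was 1, the ferroxidase gene Cp, which stood at 20 in NS and 30.1 in OSM and so was at least 1.5-fold higher.

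Carriers of lipids and organic solutes differed between the times in both directions. Slc27a1 encodes FATP1, a fatty acid importer. It rose from 45.9 to 77.9 in NS cells and from 53.3 to 82.9 in OSM cells, or 1.70-fold and 1.56-fold, with a log2 estimate of 0.70, an SE of 0.0783 and an adjusted p of 0.0114. Slc27a4, the related FATP4 gene, read 48.2 and 53.9 at 6 h and 47.1 and 51.9 at 24 h, so that the times overlapped. Slc22a4, the gene of OCTN1, a carrier of ergothioneine and organic cations, rose from 29.6 to 38.1 in NS cells and from 28.9 to 41.4 in OSM cells. The adjusted p was 0.0285, and its window above held 3 metal matches. Slc14a1, the urea channel gene UT-B, fell from 305 to 207.5 in NS cells and from 265 to 183 in OSM cells, or 1.47-fold and 1.45-fold lower. Its log2 estimate was -0.54 with an SE of 0.0744 and an adjusted p of 0.0157. The creatine importer Slc6a8 read 523, 493, 517 and 565 in NS 6 h, OSM 6 h, NS 24 h and OSM 24 h, and its times overlapped.

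Among nucleoside and nucleotide sugar carriers, Slc35f5, whose substrate is not settled, rose from 91.0 to 132 in NS cells and from 91.9 to 135 in OSM cells. The NS and OSM arrays of each time were nearly equal, and the adjusted p was 0.0157. The ENT1 gene Slc29a1 fell from 37.4 to 29.5 in NS cells and from 44.8 to 31.5 in OSM cells, with a log2 estimate of -0.42, an SE of 0.0813 and an adjusted p of 0.0315. Slc29a3, the lysosomal nucleoside carrier ENT3, read 65.3 and 72.0 at 6 h and 59.0 and 58.4 at 24 h, with an adjusted p for time of 0.134. Slc35c2, a Golgi carrier linked to fucosylation, read 57.9 and 54.9 at 6 h and 45.1 and 49.1 at 24 h. Its 24 h arrays were the lower pair, with an adjusted p of 0.104. Slc35a4 read 271 and 309.7 at 6 h and 253.5 and 282 at 24 h, so the times overlapped. It was the 1 member of 8 with several probe sets whose other set was above the floor, at 31.4, 27.7, 26.8 and 32.8.

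Of the 33 members of the mitochondrial carrier family, 2 were called for time, where 8.58% of all genes were called in either direction. They were the mitoferrin gene Slc25a37 and Slc25a48, which fell from 212 to 155 in NS cells and from 164 to 118 in OSM cells. Its log2 estimate was -0.47 with an SE of 0.0744 and an adjusted p of 0.0212. OSM 24 h was its lowest array and NS 6 h its highest. The ADP and ATP exchangers of the inner membrane, Slc25a4 at 501, 450.5, 485 and 502 and Slc25a5 at 847, 914, 838 and 829 in NS 6 h, OSM 6 h, NS 24 h and OSM 24 h, were within 1.25-fold in every pair. The phosphate carrier Slc25a3, at 350.3, 352, 344 and 353, varied less still. The folate and FAD carrier Slc25a32 read 45.2, 56.7, 45.2 and 42.4. Its OSM 6 h array stood above the other 3, and in OSM cells its log2 ratio of 24 h over 6 h was -0.42. Slc25a43 read 40.1 in NS and 50.9 in OSM at 6 h, and 45.3 and 52.4 at 24 h. Its OSM array was the higher at each time, by 0.34 and 0.21 on the log2 scale. The calcium-regulated ATP carrier Slc25a24, at 549, 501, 519.8 and 516, and the oxoglutarate carrier Slc25a11, at 227.5, 199, 207 and 197 in NS 6 h, OSM 6 h, NS 24 h and OSM 24 h, were highest in NS 6 h. Over the class, the median log2 ratio of 24 h over 6 h was -0.02 in NS and -0.05 in OSM cells, and 12 of 33 and 11 of 31 members were above 0, beside 53.3% and 56.7% of all genes.

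Other classes gave 2 calls between them. Slc2a5, the fructose carrier GLUT5, stood at 20 on both 6 h arrays and read 29.4 in NS and 24.7 in OSM at 24 h, or at least 1.47-fold and 1.24-fold higher. The gene is a member only through its 24 h arrays, so that its call for time follows in part from the choice of members and is given with no p. Slc9a3r1, the scaffold NHERF1 that tethers sodium-proton exchangers and other carriers to the cytoskeleton, rose from 179 to 274 in NS cells and from 221 to 287 in OSM cells, or 1.53-fold and 1.30-fold, with an adjusted p of 0.0270. Slc1a4, the neutral amino acid carrier ASCT1, read 149.8 in NS and 139.8 in OSM at 6 h and 105 and 119 at 24 h. Its 24 h arrays were the lower pair and the adjusted p of 0.0572 missed the threshold, as did those of Slc16a13, at 0.0574, and of the cation-chloride family gene Slc12a9, at 0.0619. Slc12a9 read 36.7 and 41.04 at 6 h and 43.2 and 53.5 at 24 h in NS and OSM. The lysosomal sialic acid carrier Slc17a5 read 63.5, 63.6, 65.6 and 66.5, and the lysosomal carrier gene Slc49a4 42.5, 46.1, 43.6 and 44.8 in NS 6 h, OSM 6 h, NS 24 h and OSM 24 h. Neither differed by more than 0.12 on the log2 scale in any pair.

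**Figure D4:**
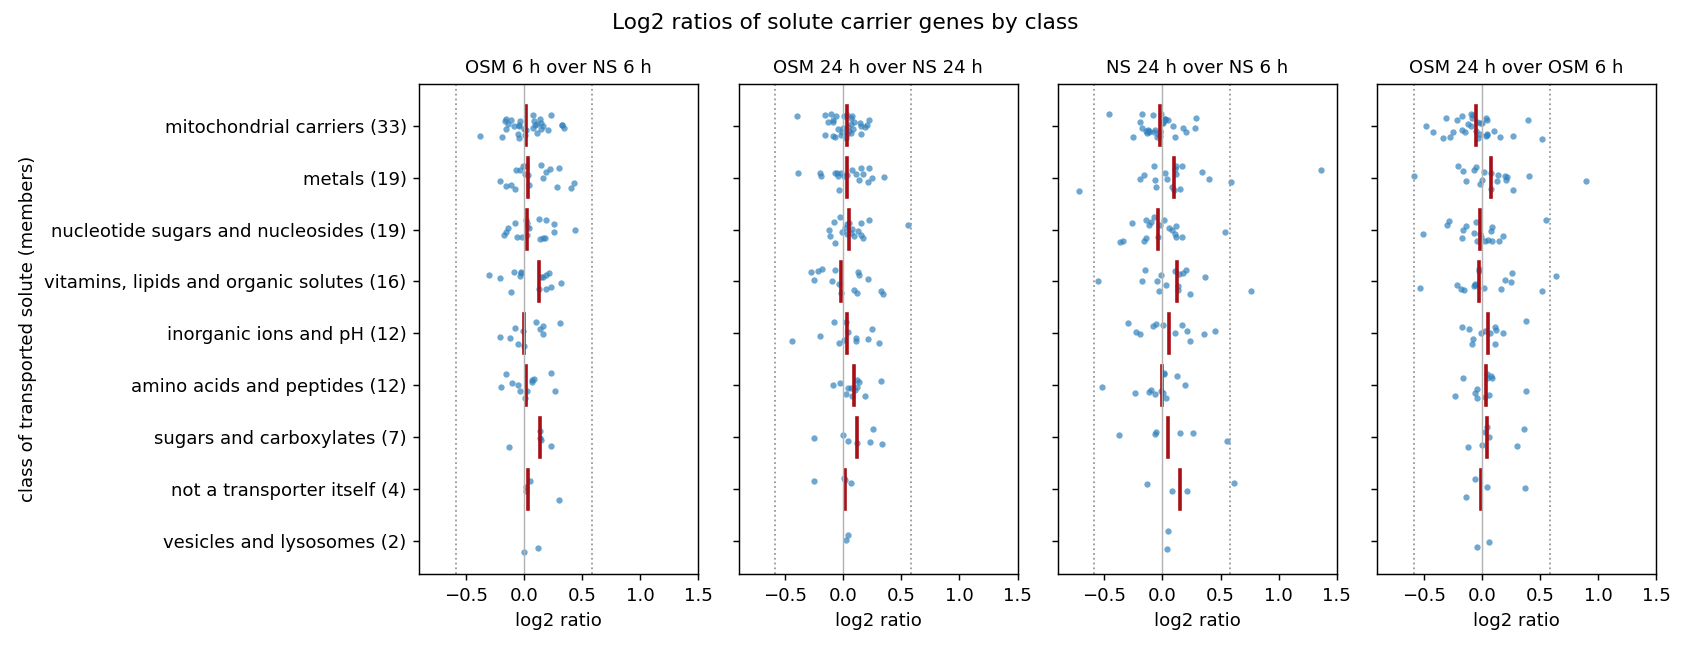
Log2 ratios of the members by class of solute, in 4 panels for OSM over NS at 6 h and 24 h and for 24 h over 6 h in NS and OSM cells; each point is 1 gene, red bars are class medians where at least 3 genes were measured, and dotted lines mark 1.5-fold. Points pass the lines only in the time panels, where they belong to metals, to vitamins, lipids and organic solutes and to the scaffold Slc9a3r1.

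By class, medians lay between -0.05 and 0.15 in every pair. The sugar and carboxylate carriers had 0.14 with OSM at 6 h and 0.12 at 24 h, where 4 of 5 and 6 of 7 genes measured were above 0, beside the 49.8% and 53.4% of all genes. The metal carriers had 0.10 for 24 h over 6 h in NS cells and 0.08 in OSM cells, with 13 and 11 of 19 above 0, beside 53.3% and 56.7% of all genes. They held 3 of the 5 genes past 1.5-fold in NS cells, Slc39a4 and Slc31a2 higher and Slc39a10 lower. Partner subunits and transporters whose symbols do not begin with Slc and a number, some of them numbered as solute carriers elsewhere, formed a further list. Of 25 listed, 22 were measured and 17 were above the floor, and none was 1.5-fold away with OSM at either time. For time in NS cells it was 1, the lysolipid carrier gene Mfsd2a, which read 77.8, 109, 126 and 147 in NS 6 h, OSM 6 h, NS 24 h and OSM 24 h.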

How the data were processed

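The deposited table holds linear probe set intensities, with a floor of 20, of 4 arrays of mouse cells. Affymetrix Expression Console is named in the submitters' processing notes, while for these mouse intensities the authors' version, probe set summary and normalization were not given in the sources used here. Of 41345 probe sets, 23521 were paired with 1 gene in the platform annotation, 1820 with several and 16004 with none; only the first were used, and the probe set with the highest mean stood for a gene. Log2 intensities were computed from the deposited values. Ratios are 1 array over 1 array, counted at 1.5-fold. The submitters' fold was 2, and 1.5 was taken because earlier results of these data showed few genes past 2-fold. A ratio against an array at the floor is a lower bound. Two-sided tests used limma 3.58.1 under R 4.3.3, with lmFit and eBayes, and had terms for OSM and time, 1 residual degree of freedom and Benjamini-Hochberg adjustment over the 8303 genes that exceeded the floor on any array; 5.49 prior degrees of freedom were added. The scripts were tested on simulated data.

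The members and the gene lists were chosen with earlier results of these data known, and 2 genes were moved between classes after their values were seen. Members were named by a rule: in each pair the 6 highest and the 6 lowest log2 ratios among members whose brighter array reached 40, every member past 2-fold or called by limma, the 10 with the highest mean, and in each class the highest and the most variable. Others named, such as Slc29a2, relatives of a named gene and members of counts, were chosen after their values were seen. Alternatives were a 2-fold count, a floor of 40, quantile normalization, centred arrays, members above the floor on all arrays, the mean of probe sets, both NS arrays averaged as the control, and limma with an intensity trend, without the other term or without each array. Promoter sequences are RefSeq's for GRCm38.p6; no build is named for the intensities. Intensities of different probe sets were compared only to choose a gene's probe set and the members to name, and were summed for the keratinocyte markers.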

Additional observations from a re-analysis of the deposited data

Results flagged for a closer look

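Slc25a33, which encodes a mitochondrial carrier of pyrimidine nucleotides, was the 1 member whose OSM ratios pointed opposite ways at the 2 times by at least 1.1-fold each. It read 23.4 in NS and 21.0 in OSM at 6 h, and 23.8 and 27.7 at 24 h. The log2 ratio of OSM over NS was -0.15 at 6 h and 0.22 at 24 h. No test was made of this difference, and all 4 intensities lie near the floor of 20.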

How the results depend on the processing

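No paired analysis was possible because the labels carry no replicate numbers, apart from the time term of limma, which already sets OSM beside NS within each time. The counts of 0 members at 1.5-fold with OSM held at both times under every alternative run but the averaged NS arrays as control. With that control 1 member was higher at 24 h, Slc39a4, and 1 lower, Slc25a48. The share of all genes was not counted with it. That control is the mean of NS 6 h and NS 24 h, so its ratios also take in the change with time in NS cells. For Slc39a4 the log2 ratio of OSM over NS at 24 h was -0.04, and that of 24 h over 6 h in NS cells was 1.36. For Slc25a48 these were -0.39 and -0.46. Counts for time moved more. At 2-fold, 1 member was higher and 0 lower in NS cells and 0 were higher in OSM cells, and with a floor of 40, 0 were lower in NS cells. After quantile normalization, and likewise with centred arrays, 2 were higher in NS cells, Slc27a1 and Slc39a4, and 2 lower, Slc14a1 and Slc39a10. In OSM cells 1 was lower, Slc39a10. With the floor of 40 and under these settings no share of all genes at 1.5-fold was counted, so the counts have no baseline. Limma called 1 member for OSM with only genes exceeding the floor on every array and 4 with an intensity trend. For time it called 19 with the trend, 0 after quantile normalization, 0 without the OSM term and 0 to 0 with 1 array left out, where the fit keeps 1 term. The members' medians stayed within -0.05 to 0.06 on the log2 scale in every pair and setting. Recomputed under the settings other than the mean of the NS arrays, 12 of 880 log2 ratios of named members moved. With the averaged NS arrays 47 of 89 did. A ratio moved if it shifted by at least the median absolute log2 ratio of all genes in its pair, 0.09 to 0.14. The members' own medians of this kind were 0.09 to 0.13, so a small ratio could fall to 0 without being counted as moved. Of the ratios past 1.5-fold in the main values, all of them of 24 h over 6 h, none changed sign. No OSM ratio was past 1.5-fold there, so this says nothing about those. The cause of the other differences was not tested. Members near the floor, 34 with a brightest array under 40, are the least sure.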
